A study of Saccharomyces cerevisiae with 2 samples.

Results

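The copies of the 5S ribosomal RNA gene and the intergenic spacers of the ribosomal DNA were followed in RNA recovered with the yeast protein Bud22. They were taken by name, as every rRNA row of the deposited count tables that begins with RDN5-, NTS1 or NTS2. This gave 9 of the 2635 named features with reads in either library. They are 6 copies of the 5S gene (RDN5-1 to RDN5-6) and 3 spacer rows (NTS1-2, NTS2-1 and NTS2-2), and each of the 9 had reads in both libraries.

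The study used UV crosslinking and analysis of cDNA (CRAC), which sequences the RNA fragments that stay attached to a purified protein after irradiation. It holds 1 library from Saccharomyces cerevisiae with Bud22 carrying a HIS-TEV-proteinA tag, and 1 from W303 wild type without a tag, the background of the purification. Per the labels, both were treated alike: growth in rich YPD medium to an OD600 of 1.0, then 4 h in SDC-URA medium with the photoreactive base 4-thiouracil, then UV at 365 nm for 30 min. For the control, the growth description speaks of tagged cells while its genotype, title and source name do not, and the grouping here goes by genotype. With 1 library per group there is no replicate error and no test, so the values compare these libraries and not the conditions.

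In yeast the ribosomal DNA is a long tandem array. Each repeat carries the 35S transcription unit, read by RNA polymerase I and processed to 18S, 5.8S and 25S rRNA, and on the opposite strand a 5S gene, read by RNA polymerase III. The 5S rRNA joins the large subunit with the ribosomal proteins uL18 (RPL5) and uL5 (RPL11A, RPL11B). Bud22 is a nucleolar factor needed for the small subunit, which holds no 5S rRNA. The spacer NTS1 lies between the 3′ end of the 35S unit and the 5S gene and holds the replication fork barrier. NTS2 lies between the 5S gene and the 35S promoter and holds a replication origin. Both can be transcribed by RNA polymerase II at low levels.

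The library with tagged Bud22 held 215982 sense reads over named features and the control 132895. The read entries of the same rows summed to 5920 and 37130, which is 36.5 and 3.58 reads per entry. These are sums over rows that overlap or share reads, so 1 read can be counted more than once. The read sums exceed the mapped reads of the file headers, 188065 with Bud22 and 97270 in the control. Entries are deposited for both strands together, so the entry sums can include antisense entries. An entry is the unit of the last deposited column. As far as the values tell, it stands for 1 or more reads, and reads of 1 entry are not independent. Read counts and entries are therefore given side by side. All intervals are exact 95% intervals for counting error only, and those on reads are too narrow where an entry stands for many reads.

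The 5S gene was read in both libraries, always on the sense strand. RDN5-1 had 908 sense reads on 30 entries in the library with tagged Bud22 and 711 sense reads on 252 entries in the control. The Bud22 library thus had more reads and fewer entries. RDN5-6 had exactly the same values as RDN5-1. RDN5-2, RDN5-3, RDN5-4 and RDN5-5 each had 866 sense reads on 28 entries with Bud22 and 685 on 240 in the control.

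**Figure D1:**
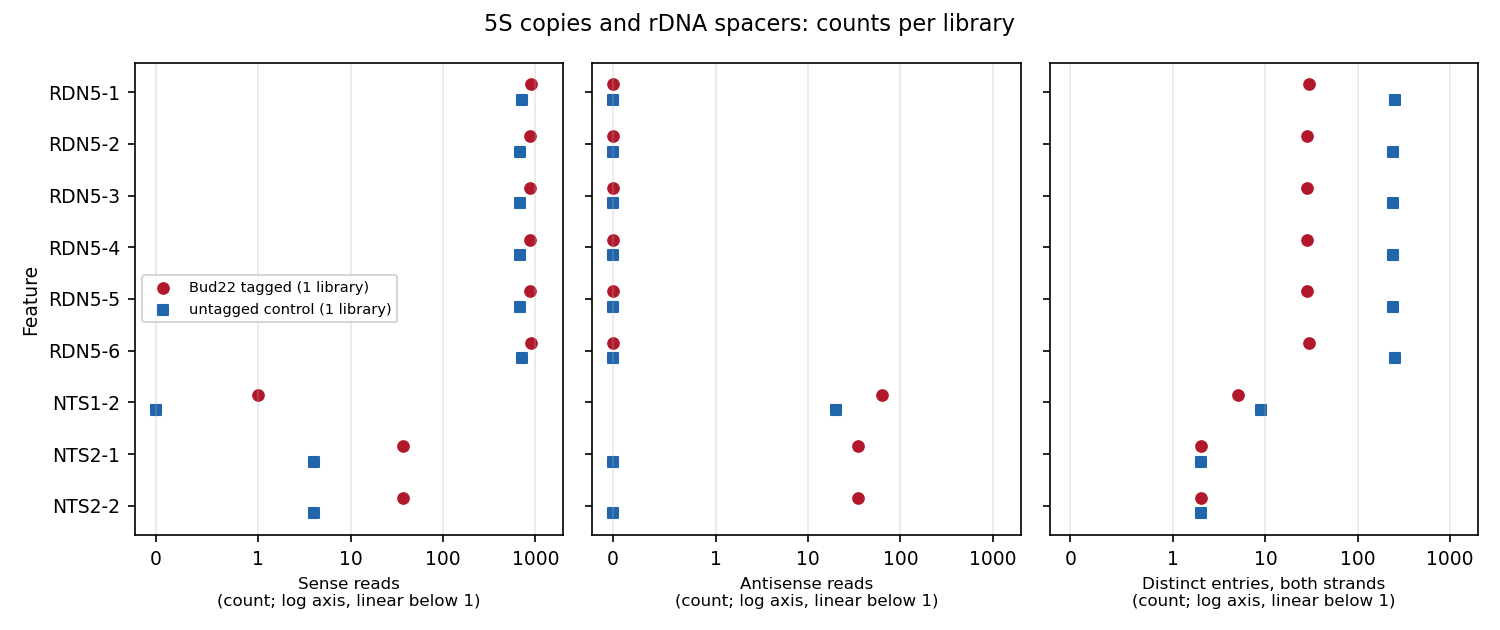
Sense reads, antisense reads and distinct entries (log axes, linear below 1) of the 6 copies of the 5S gene and the 3 spacer rows, with 1 point per library. The 5S copies sit between 866 and 908 sense reads with Bud22 and between 685 and 711 in the control, have 0 antisense reads, and differ far more in entries than in reads.

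The 6 copies thus hold only 2 different sets of counts, 1 shared by 2 copies and 1 by 4. Rows with equal counts share reads, so the copies are not separate measurements and which of them gave the RNA cannot be told. How reads that match several copies were assigned is not given. The same split appears in the lengths of the R64 reference table, which gives 121 bases for RDN5-1 and RDN5-6 and 119 bases for the other 4. Whether the counts rest on an annotation with these lengths is not stated. The excess of RDN5-1 and RDN5-6 over the other copies came to 42 reads with Bud22, or 4.63% of the RDN5-1 reads (3.35 to 6.20), and to 26 in the control, or 3.66% (2.40 to 5.31). In entries the excess was 2 with Bud22 and 12 in the control. These are differences between rows, and which reads make them up cannot be told from the counts. The Bud22 over control ratio of these shares was 1.26 by reads (0.758 to 2.15) and 1.40 by entries (0.152 to 6.29), and both intervals include 1.

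No antisense read was counted at any 5S copy in either library. Against the 908 and 711 reads of RDN5-1, the exact interval allows an antisense share of up to 0.405% with Bud22 and 0.517% in the control. Of the 24 rows of the rRNA class, 3 had antisense reads with Bud22, and all 3 were intergenic spacer rows. In the control 11 rows had some, of which NTS1-2 was the only intergenic spacer row. The other 10 were regions of the 35S unit, among them its internal spacers.

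The sense reads of each 5S copy were counted a second time in the deposited tables, as antisense reads of rows named as intergenic regions. In both libraries 2 intergenic rows had the antisense count of RDN5-1 and RDN5-6 (908 and 711), and 4 had that of the other copies (866 and 685). These 6 rows together carried 5280 antisense reads with Bud22, which is 2.98% of all 177360 intergenic antisense reads, and 4162 in the control, or 4.81% of 86484. In 4 of these intergenic rows the control also had 1 to 5 sense reads, and 1 further row had many sense reads in both libraries, so the match concerns the antisense column. By their equal counts, the antisense reads of these 6 rows are the 5S reads.

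Relative to all named features, 5S took a slightly smaller share of the sense reads with Bud22 than in the control. RDN5-1 took 0.420% of them with Bud22 (0.394 to 0.449). Its control share was 0.535% (0.496 to 0.576), which gives a Bud22 over control ratio of 0.786 (0.712 to 0.868). By entries the ratio was 0.747 (0.493 to 1.09), an interval that includes 1. The 4 shorter copies gave 0.778 (0.703 to 0.861) by reads and 0.732 (0.476 to 1.08) by entries. Summed over the 6 copies, which count shared reads up to 6 times, 5S made up 2.44% of the named sense reads with Bud22 and 3.13% in the control. No interval is given for these sums. They were 8.78% and 5.75% of the reads of the rRNA class. Its other features are each listed in fewer rows than 5S, and some of those rows overlap. These percentages therefore depend on how often each feature is counted and are not shares of separate reads.

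A feature was called past the fold when it had at least 10 counts over both libraries and its ratio, with a pseudocount of 0.5, was at least 2-fold either way. None of the 6 copies of 5S passed by reads or by entries. Of the 494 features measured by reads, 24.7% were higher and 49.6% lower with Bud22, and of the 342 measured by entries 25.1% were higher and 38.0% lower. The split by reads was 122 higher and 245 lower. It was 77 and 280 with totals without rRNA, 171 and 200 with totals without tRNA, and 168 and 216 with the median ratio set to 1. The median ratio over the 494 features was 0.525, so 5S lay above the middle of the measured features. The 494 include features that reached the minimum through control reads alone and could only be low, which bears on this median.

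The direction of the 5S ratio by reads depended on the total against which it was taken. It was below 1 over all named features (0.786), over the mapped reads of the file headers (0.661, interval 0.598 to 0.730) and over named features outside the rRNA class (0.496, 0.449 to 0.548). It was above 1 over named features outside the tRNA class (1.64, 1.48 to 1.81) and with the median ratio of measured features set to 1 (1.497, 1.36 to 1.65). The value without rRNA is just past the 2-fold limit downwards. The tRNA class held 44381 of the 132895 named sense reads in the control and 146859 of the 215982 with Bud22. No direction over the library total can be given for 5S.

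Set against the other rRNAs, which does not need the library total, 5S had no single direction either. Over the 35S unit (RDN37-2) the quotient of 5S reads was 0.0660 with Bud22 and 0.0413 in the control, a ratio of 1.60 (1.44 to 1.77). By entries the quotients were 0.0538 and 0.0506, with a ratio of 1.06 (0.695 to 1.57). The higher 5S quotient by reads was thus not seen when entries were counted.

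Against 25S rRNA (RDN25-1), the main rRNA of the large subunit, the ratio of quotients was 2.41 (2.17 to 2.68) by reads and 1.36 (0.884 to 2.04) by entries. Against 18S rRNA (RDN18-1), the rRNA of the small subunit, it was 0.919 (0.825 to 1.02) by reads and 0.876 (0.562 to 1.33) by entries. Both intervals for 18S include 1, so a change of 5S relative to 18S was not detectable.

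Against 5.8S rRNA (RDN58-2), the other short rRNA of the large subunit, 5S was higher with Bud22 by reads, and entries gave no direction. RDN58-2 had 569 reads on 26 entries with Bud22 and 1055 reads on 153 entries in the control. The ratio of quotients was 2.37 (2.05 to 2.73) by reads and 0.701 (0.385 to 1.28) by entries, an interval that includes 1.

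Against the 5′ external spacer (ETS1-1), which is cut from the precursor during small subunit assembly, 5S was lower with Bud22 in both counts. ETS1-1 had 1352 reads on 56 entries with Bud22 and 218 reads on 124 entries in the control. By reads the 5S quotient was 3.26 in the control and 0.672 with Bud22, a ratio of 0.206 (0.172 to 0.246). By entries it was 2.03 and 0.536, a ratio of 0.264 (0.155 to 0.443). Among the 5 rRNA features set against 5S, this was the only one whose entry interval excluded 1.

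**Figure D2:**
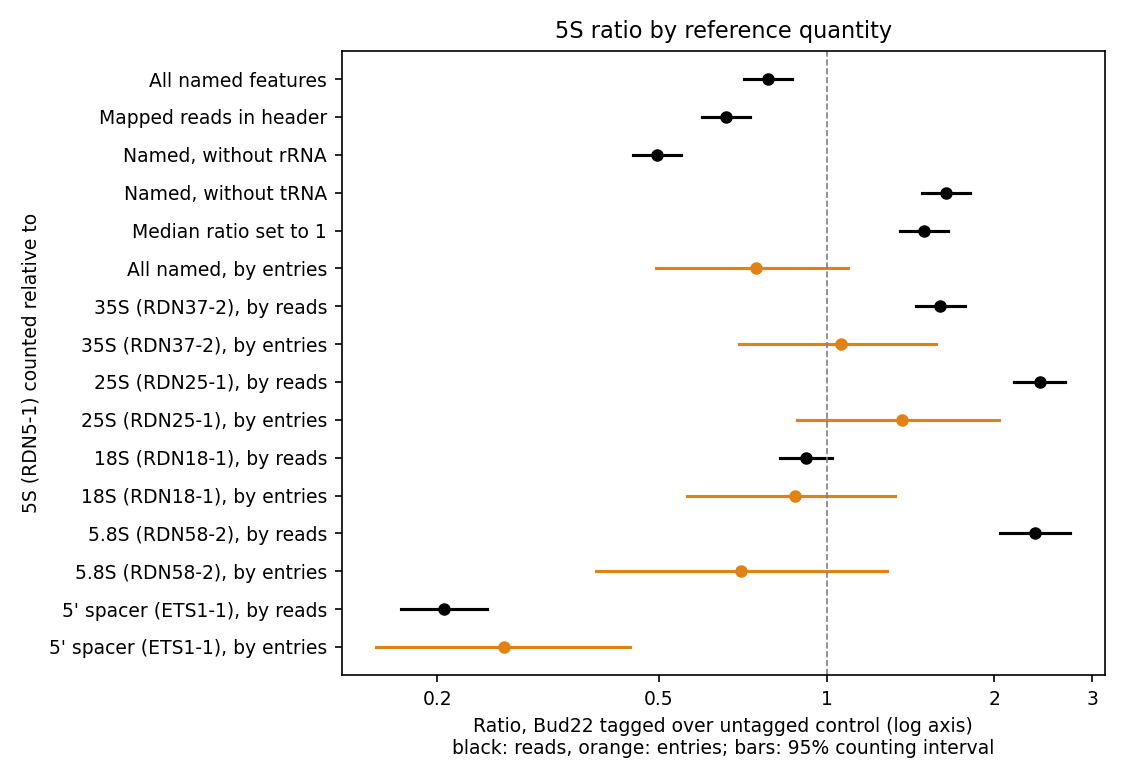
Bud22 over control ratio of 5S (RDN5-1) on a log axis, relative to 5 library totals by reads, to all named features by entries, and to 5 rRNA features by reads (black) and entries (orange), with 95% counting intervals. Read ratios run from 0.206 against the 5′ external spacer to 2.41 against 25S, and every entry interval except that against the 5′ external spacer includes 1.

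Per base, 5S had the highest read density with Bud22 and the next to highest in the control among 5 rRNA features set side by side (5S, 5.8S, 18S, 25S and ETS1). With the lengths of the R64 table, RDN5-1 had 7504 sense reads per kb with Bud22 (7024 to 8009), ahead of 5.8S at 3601 (3311 to 3910), 18S at 3102 (3021 to 3185), ETS1 at 1931 (1830 to 2037) and 25S at 1834 (1789 to 1880). The intervals of ETS1 and 25S overlap, and the other neighbours in this order do not. In the control 5.8S stood at 6677 reads per kb (6280 to 7093), and 5S came next at 5876 (5452 to 6324), with intervals that overlap slightly. Of these 5, then followed 25S at 3463, 18S at 2233 and ETS1 at 311.4.

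By entries 5S was the densest of these 5 features in each library. RDN5-1 had 247.9 entries per kb with Bud22 (167.3 to 353.9), and its interval overlaps that of 5.8S at 164.6 (107.5 to 241.1) but not that of 18S at 105.0 (90.6 to 121.1). In the control it had 2083 entries per kb (1833 to 2356), against 968.4 for 5.8S (821.0 to 1135) and 967.6 for 25S (934.8 to 1001). A read that overlaps a feature in part is counted in full, which raises the density of short features such as 5S and 5.8S.

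**Figure D3:**
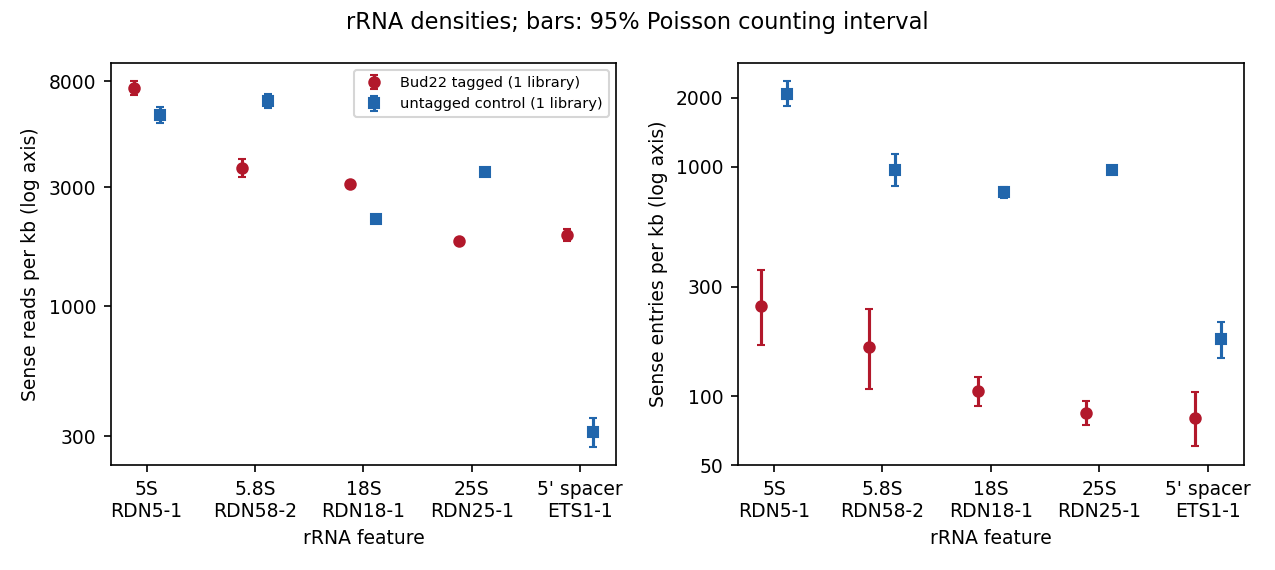
Sense reads per kb and sense entries per kb (log axes) of 5S, 5.8S, 18S, 25S and the 5′ external spacer, 1 point per library with 95% Poisson counting intervals and no scaling for depth, so the order is to be read within a library. With Bud22 5S stands first at 7504 reads per kb, and in the control it comes after 5.8S, at 5876 against 6677.

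Each entry at 5S stood for about as many reads as entries elsewhere in the same library. RDN5-1 had 30.3 reads per entry with Bud22, against a median of 24.6 (quartiles 19.8 and 49.0) over 78 other features with at least 10 entries. In the control it had 2.82, against a median of 2.50 (quartiles 2.03 and 3.55) over 354 features. The other rRNA rows with at least 10 entries ran from 21.7 to 29.5 with Bud22, just under 5S.

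The spacer NTS2 had few reads, and its higher count with Bud22 came from a single entry per strand. NTS2-1 had 37 sense and 35 antisense reads on 2 entries with Bud22, and 4 sense and 0 antisense reads on 2 entries in the control. NTS2-2 had the same values and shares these reads. Since both strands had reads and there were 2 entries, 1 entry stood for all 37 sense reads and 1 for all 35 antisense reads.

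By sense reads the NTS2 share was 0.0171% with Bud22 (0.0121 to 0.0236). The control share was 0.00301% (0.00082 to 0.00771). The ratio was 5.69 (2.04 to 22.0), and it was 11.8 with totals without tRNA and 3.59 with totals without rRNA. Both rows were thus past the fold, where 24.7% of measured features were higher. NTS2 reached the minimum of 10 reads only through its Bud22 reads. By sense entries it was 1 against 2, a ratio of 3.14 with an interval from 0.0532 to 60.2, so a difference was not detectable. The antisense reads, 35 against 0, had a lower limit of 5.54 for the ratio. Against a floor of 3 counts in the control, which leaves out the counting error of the 35 reads, they were at least 7.18-fold higher. Both bounds hold for reads and not for molecules, since 1 entry against 0 gives no fold. Of the 118 features measured by antisense reads, 23.7% were past the fold upwards. The NTS2 antisense reads reached the minimum through the Bud22 library alone, so they could be called higher only.

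The spacer NTS1 was read almost only on the antisense strand, which is the strand opposite to its annotation in the tables. NTS1-2 had 1 sense and 64 antisense reads with Bud22 and 0 sense and 20 antisense reads in the control. The antisense share was 98.5% (91.7 to 99.96) with Bud22 and 100% (83.2 to 100) in the control, so the strand was alike in the library without a tag. For the sense reads, 1 against 0 is under the floor in both libraries and gives no fold.

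The antisense reads of NTS1-2 had a Bud22 over control ratio of 1.97 (1.18 to 3.44) over the named sense reads, just short of the 2-fold limit. With totals without tRNA it was 4.10 (2.45 to 7.15), and with totals without rRNA 1.24 (0.743 to 2.17). They stood on 4 entries with Bud22 and 9 in the control, a ratio of 2.79 (0.627 to 9.99), an interval that includes 1. Each antisense entry thus stood for more reads with Bud22, as at 5S.

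The spacers were far less covered than the 5S gene between them. NTS1-2 had 65 reads over both strands with Bud22 and 20 in the control, NTS2-1 had 72 and 4, and RDN5-1 had 908 and 711. These are counts and not levels per length, since the reference table gives no length for the spacers.

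Other products of RNA polymerase III outside tRNA gave few reads. The list held 6 genes, of which 4 were listed in either library and 3 reached 10 reads. By reads 0 of the 3 were past the fold upwards and 2 downwards, RPR1 and SNR52, where 24.7% and 49.6% of all measured features were, so the count says nothing particular to the list. SCR1, the RNA of the signal recognition particle, had 105 reads on 5 entries with Bud22 and 47 on 25 in the control, a ratio of 1.37 (0.966 to 1.98) by reads and 1.25 (0.375 to 3.34) by entries. RPR1, the RNA of RNase P, had 0 reads against 10, with an upper limit of 0.275 for the ratio, and 0 entries against 2. Against the floor of 3 counts this is at least 5.42-fold lower in reads, leaving out the counting error of the 10 reads. RPR1 reached the minimum through control reads alone, so it could be called lower only. By entries the RPR1 ratio had an upper limit of 33.4, so a lower share was not detectable. SNR52, a box C/D snoRNA, had 6 reads against 11, a ratio of 0.336 (0.102 to 0.990). By entries, 1 against 6, the ratio was 1.05 (0.0227 to 8.62), so it was not lower by entries. SNR6, the U6 spliceosomal RNA, had 0 reads against 1.

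Messenger RNAs of 5S assembly factors had no reads with Bud22, as did most features seen in the control: 365 named features had sense reads with Bud22 and 2183 in the control. Of 7 genes listed, 4 were read in the control and 0 in the Bud22 library, and 1 reached 10 reads. It was past the fold downwards, as were 49.6% of measured features. RPL5, a partner of 5S rRNA, had 0 reads against 10, with an upper limit of 0.275 for the ratio. It reached the minimum through control reads alone, so it could be called lower only. The control reads stood on 5 entries. RPL11A and RPL11B, near-identical genes with equal counts, each had 0 against 5, and RRS1, which brings the 5S particle to the precursor, had 0 against 1. By entries the RPL5 ratio had an upper bound of 6.84, so a lower share was not detectable.

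Reading frames taken by name as those of the ribosomal DNA locus and its truncated repeats had rows for 10 names. Of these, 2 reached 10 sense reads and both were lower past the fold by reads, where 49.6% of measured features were. YLR154C-G, inside the 25S gene, had 3439 reads against 5019, a ratio of 0.422, and an entry ratio of 0.619 (0.523 to 0.728), which is not past the fold. By its place it shares reads with RDN25-1, which had 6229 sense reads with Bud22 and 11761 in the control. It is not a separate measurement. YLR157C-B had 57 against 84, a ratio of 0.418, on 1 entry against 47. The frames were listed by name, and whether the reads of YLR157C-B came from this locus cannot be told from the counts. Its ratio therefore says nothing particular to the ribosomal DNA. The 4 genes for asparaginase, ASP3-1 to ASP3-4, each had 0 sense reads against 5. In the R64 annotation, 4 reading frames overlap a 5S copy, YLR154C-H, YLR156C-A, YLR157C-C and YLR159C-A at RDN5-2 to RDN5-5, and none of these had a row in either library. YLR162W, the neighbour of RDN5-6, had only antisense reads, 215 with Bud22 and 500 in the control, on 8 and 177 entries. This was not particular to it. YLR154W-A also had only antisense reads, 651 with Bud22 and 2275 in the control. YLR154W-C had 960 and 2963 antisense reads, beside 0 and 4 sense reads.

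The features with a Bud22 over control read ratio most like that of RDN5-1 were 5 tRNA genes, among 89 other features with at least 100 sense reads over both libraries and equal counts taken once. The measure was the distance between log2 ratios over the 2 libraries. They were tG(GCC)E (557 reads against 436, ratio 0.786), SUF16, tG(GCC)D2, tG(GCC)M and tG(GCC)P2, with ratios from 0.779 to 0.815. Genes with counts this close can share reads and are not separate cases. By entries they did not resemble 5S, with ratios from 2.28 to 2.61 against 0.747.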

How the data were processed

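The labels name 1 library with tagged Bud22 and 1 untagged control. Per the file headers, the authors counted reads per feature with pyReadCounters (Counters version 1.2.1), and the tables hold these raw counts. Not given in the sources used here are aligner settings, genome build, annotation release and duplicate handling. The column of entries exceeded the sum of both strands in 0 rows. Its meaning is inferred from the values.

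Rows of intergenic regions were left out of totals. Ratios of shares carry exact conditional binomial 95% intervals and shares exact Clopper-Pearson intervals. Quotients over another rRNA carry the exact conditional interval of the odds ratio, which adds the counting error of that rRNA. The interval planned for the 35S quotient, without it, was 1.45 to 1.77. The comparison planned for NTS1 on sense reads gave no fold, and antisense reads took its place. Entries were limited to the sense count. A count of 0 was given a floor of 3 counts, 0.00139% of named sense reads with Bud22 and 0.00226% in the control. Computation used Python 3.11.15 and scipy 1.17.1, and the ratio code was tested on simulated data.

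All 9 members are described, beside the 35S features, lists of RNA polymerase III products, 5S assembly genes and locus reading frames, and the 5 features nearest to RDN5-1. Members and lists were chosen with earlier results of these data known. Alternatives covered totals, entries, strands, copies, minimum counts and fold. No sequence is printed.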

Additional observations from a re-analysis of the deposited data

Results flagged for a closer look

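In the intergenic rows, which enter no ratio of the report, 4 rows each had 35 sense reads on 1 entry in the library with tagged Bud22 and 0 in the control. Reads and entry equal those of the antisense strand of NTS2-1 and NTS2-2. By these equal counts the rows hold the NTS2 antisense reads again and are not separate measurements. They were flagged because they lie above the control in data left out of the totals.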

How the results depend on the processing

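The 5S ratio of 0.786 stayed within its interval by entries, with both strands together, over all copies summed and at RDN5-2. It moved outside with mapped reads (0.661), without rRNA (0.496), without tRNA (1.64), with the median ratio set to 1 (1.497), and, chosen after seeing the data, with equal rows of a class counted once (0.705). The quotient of 5S over 35S, 1.60 as the ratio between libraries, was 1.06 by entries. With RDN25-1 as denominator it was 2.41 by reads and 1.36 by entries, with RDN18-1 0.919 and 0.876, and with RDN58-2 2.37 and 0.701. The entry values of these 3 and both values for RDN58-2 were added after seeing the data. NTS1 had no fold by sense reads, so its antisense ratio of 1.97 was used. It was 4.10 without tRNA, 3.75 with the median ratio set to 1 and between 1.24 and 2.79 otherwise, with antisense entries added after seeing the data. The NTS2 ratio ranged from 3.14 by sense entries, added after seeing the data, to 11.8 without tRNA, always inside its wide interval.

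Of the features past the fold, 367 in all, 122 were higher and 245 lower. By entries there were 216, with 130 lower. With no minimum there were 2081, with 1950 lower, and with at least 30 counts 236, with 137 lower. Higher features numbered 77 with totals without rRNA and 69 at 4-fold. A stricter fold can only call fewer features, and another total scales every ratio by the same factor. A minimum admits fewer or more features. The cause of the shift by entries was not tested. No paired analysis was possible because each group has 1 library, and no replicate could be left out. With 30 entries for 5S and at most 5 for an intergenic spacer in the Bud22 library, depth limits every statement on entries.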
